A study of Homo sapiens with 6 samples.

Results

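Dividing cells switch on a large set of genes shortly before mitosis, and 58 of these, the genes of the mitotic spindle, kinetochore and cytokinesis with their regulators, were followed here in a human leukaemia line. The 58 were listed by symbol from their known roles, and each matched 1 row of the deposited table of 39771 Ensembl genes. The rule used no measured value, but the list was chosen with earlier results of these data known. MOLM-13 is an established acute myeloid leukaemia line that carries the MLL-AF9 translocation. All 6 libraries came from MOLM-13 cells transduced with a lentiviral short hairpin RNA and selected with puromycin. In 2 libraries the hairpin was non-targeting (shNT), and in 4 it was directed at LAMP5 (shLAMP5), which encodes a lysosome-associated membrane protein. The labels tie no library to a hairpin sequence or a harvest time, and more than 1 of either may be present among the 4 shLAMP5 libraries. Whether replicates were grown as separate cultures is also not stated, so p-values reflect only library-to-library spread, which may be technical.

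As background, entry into mitosis is driven by CDK1 bound to cyclin A or cyclin B, with the Aurora and Polo kinases acting beside it. Chromosomes are compacted by condensin, attached to the spindle through kinetochores built on CENPA-containing centromeres, and held in check by the spindle checkpoint until every kinetochore is attached. The anaphase-promoting complex with CDC20 then releases sister chromatids, and the midzone and contractile ring divide the cell. Many of the genes are transcribed late in the cell cycle by B-MYB (gene MYBL2) and FOXM1 acting with the MuvB complex, so their RNA in a bulk sample follows how many cells are in or near mitosis. Fewer such cells and less RNA per cell cannot be told apart in these libraries.

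The mitotic genes were lower in the shLAMP5 libraries as a group. Summed over the 58 genes, the level was 2727 and 2502 TPM (a level scaled to transcript length and to the library's total) in shNT 1 and 2, and 1678, 1444, 1001 and 1459 TPM in shLAMP5 1 to 4. The shLAMP5 sums were thus 64.2%, 55.2%, 38.3% and 55.8% of the shNT mean, with shLAMP5 3 the lowest and no overlap between the groups. Of the 58 genes, 57 reached the minimum of 1 TPM in at least 2 libraries and entered the test. All 57 had a negative log2 fold change (shLAMP5 minus shNT, computed on log2(TPM + 1) values), against 50.7% of the 13072 genes tested. Their median was -0.91, with a range of -1.50 to -0.35, while the median over all genes tested was -0.0060. In 53 of the 57 each of the 4 shLAMP5 values was under both shNT values, against 13.5% of all genes tested. In none did all 4 lie above, against 8.25% of all genes. A log2 fold change of -1 or lower was reached by 18 of the 57, against 1.08% of all genes. All 18 also had every shLAMP5 library below both controls, a combination found in 0.918% of all genes.

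No mitotic gene passed the test. With limma and Benjamini-Hochberg adjustment over all 13072 genes, 0 of the 57 had an adjusted p under 0.05, against 0% of all genes in either direction, and their adjusted p ran from 0.366 to 0.806. At an unadjusted p under 0.05 there were 51 of the 57, all lower, against 5.25% of all genes lower and 3.72% higher. The unadjusted count was 19 without shNT 1 and 24 of 56 without shNT 1 and shLAMP5 2. When limma weighted each library by its estimated precision, 15 of the 57 were called, all lower, against 0.719% of all genes called lower and 0.887% called higher. The weights were 3.41 for shLAMP5 4, 1.54 for shLAMP5 1, 1.40 for each shNT library, 0.503 for shLAMP5 3 and 0.193 for shLAMP5 2. The 15 were FOXM1, CCNB1, CCNB2, AURKA, PLK1, CDC20, UBE2C, ESPL1, CENPA, KIF20A, KIF23, KIF2C, KIF4A, TOP2A and MKI67.

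The same library was the lowest in most genes, while the highest of the 4 varied. Among the 4 shLAMP5 libraries, shLAMP5 3 was the lowest in 53 of the 57 genes, while the highest was shLAMP5 1 in 35, shLAMP5 2 in 20 and shLAMP5 4 in 2. Relative to the shNT mean, the median over all 58 genes was -0.57 in shLAMP5 1, -0.81 in shLAMP5 2, -1.38 in shLAMP5 3 and -0.82 in shLAMP5 4 on the log2(TPM + 1) scale. The shNT libraries were closer to each other than to any of these, at 0.095 and -0.095. In 31 of the 57 genes the higher shNT value was at most 1.2 times the lower, and in 44 of the 57 shNT 1 was the higher. All these orders are of TPM as deposited. Median-of-ratios scaling, which aligns libraries by their median gene, divides shLAMP5 2 by 0.873 and shLAMP5 1, 3 and 4 by 1.06, 1.05 and 1.05. It raises shLAMP5 2 relative to the others, and the order of the libraries under it was not computed.

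**Figure D1:**
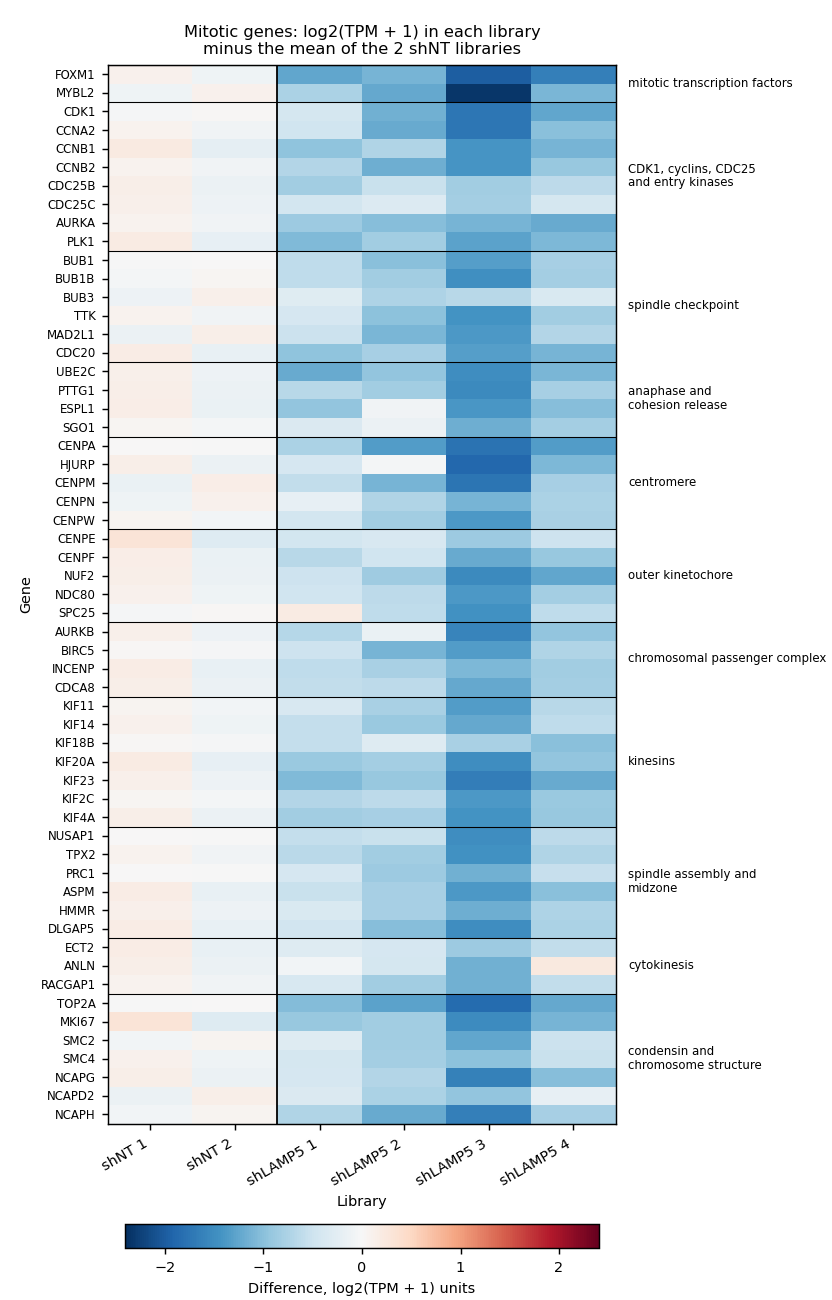
Colour map of the 57 tested mitotic genes (rows, grouped by role) in the 6 libraries (columns); colour gives log2(TPM + 1) in the library minus the mean of the 2 shNT libraries. The shLAMP5 columns are blue in nearly every row and shLAMP5 3 is the darkest (median -1.38), with values above the lower control at ESPL1 and HJURP in shLAMP5 2, SPC25 in shLAMP5 1 and ANLN in shLAMP5 1 and 4.

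The hairpin's target was checked first. LAMP5 measured 170 and 282 TPM in shNT and 80.6, 65.6, 68.8 and 86.7 TPM in shLAMP5 1 to 4, so the groups did not overlap. Its log2 fold change was -1.54 (SE 0.25), which did not pass the limma test (adjusted p 0.252). The order of LAMP5 among the shLAMP5 libraries was not that of the mitotic genes: shLAMP5 3, lowest in most of them, was second lowest in LAMP5. The libraries carried myeloid leukaemia markers, with SPI1 at 205 to 466 TPM and CD33 at 61.7 to 141 TPM. The 5 B cell markers summed to at most 1.80 TPM and the 9 erythroid and megakaryocytic markers to at most 1.28 TPM in any library. Of the 5 T cell markers in the table, CD3D reached 8.41 TPM, while CD3E, CD3G, CD2 and CD8A stayed at or under 0.251 TPM. Among the packaging cell and fibroblast markers, COL3A1 and CDH1 were at 0 throughout, and COL1A2, DCN, LUM and EPCAM stayed at or under 0.566 TPM. KRT18 measured 16.8 to 23.6 TPM, KRT8 7.13 to 13.9 TPM and COL1A1 0.696 to 5.91 TPM, COL1A1 being highest in shLAMP5 2. VIM, which leukaemia cells also express, made up most of the list's sum of 354 to 573 TPM in shNT and 347 to 718 TPM in shLAMP5. Monocyte and macrophage markers were mostly higher in shLAMP5: 12 of 13 tested had positive fold changes, against 6439 of the 13072 genes tested. In 6 of the 13 all 4 shLAMP5 libraries lay above both controls, against 8.25% of all genes, and in the rest they did not. Over the 17 markers in the table, the mean log2(TPM + 1) level was 4.25 and 4.04 in shNT and 4.85, 4.45, 5.38 and 5.09 in shLAMP5 1 to 4, above both controls in all 4. Their sum was 2659 and 6826 TPM in shNT and 11707, 2359, 7782 and 11421 TPM in shLAMP5, and most of it was LYZ, which encodes lysozyme. LYZ measured 1984 and 6062 TPM in shNT and 1397 TPM in shLAMP5 2, the 1 library whose sum lay below both controls. In shLAMP5 2, S100A8 (27.3 TPM) and S100A9 (54.1 TPM) were below both controls too. FCN1 and CD14, markers of mature monocytes, stayed at or under 0.162 and 1.39 TPM. The library shLAMP5 2 also stood apart in the share of TPM in mitochondrially encoded genes (14.1%, against 8.75% to 10.9% in the others) and in the 10 most abundant genes (20%, against 11.5% to 12.5%). Without shLAMP5 2 the median of the mitotic genes was -0.92 and 55 of 57 lay below both shNT libraries, and the matching share of all genes was not computed. The part of these differences in the mitotic values was not tested.

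The promoters of the members are described here as background. The genes were listed from their known roles, so the motif shares describe the list and not the difference between shLAMP5 and shNT. Promoter windows (250 bases before to 50 after the gene start) were available from RefSeq, build GRCh38.p14, for 49 of the 58 genes, 8 of them with more than 1 window. AURKA, BIRC5, BUB3, CENPM, FOXM1, RACGAP1, TPX2, TTK and UBE2C were not matched. The windows were searched on both strands for TTTGAA and TTCGAA and for CCAAT, the box of the factor NF-Y. The hexamers are 2 forms of the cell cycle genes homology region (CHR) through which MuvB complexes bind, and other forms were not searched. A CHR hexamer was found in 39 of the 49 genes (79.6%), against 19.5% of all 27305 genes with a window. In 32 of the 49 (65.3%) a hexamer started within 50 bases of the gene start, a distance chosen after the positions were seen, against 6.24% of all genes. CCAAT was found in 39 of the 49 (79.6%), against 39.7%, and at least 2 copies in 25 (51%), against 12.9%. Both motifs stood in 1 window in 32 of the 49 genes (65.3%), against 7.85% of all genes. The stretches below are the 140 bases that end just before the gene start, each written 5′ to 3′ along the gene's own strand. The first 6 come from 6 of the role groups, in each case the gene with the smallest p whose stretch held both motifs. By the same rule ESPL1, ASPM and ECT2 were also picked but are not printed. Their hexamers began at -31, -113 and -115 from the gene start. Capitals mark CHR hexamers and CCAAT boxes in either orientation. MYBL2 is added as a gene with neither.
PLK1 (chr16:23678749-23678888, plus strand): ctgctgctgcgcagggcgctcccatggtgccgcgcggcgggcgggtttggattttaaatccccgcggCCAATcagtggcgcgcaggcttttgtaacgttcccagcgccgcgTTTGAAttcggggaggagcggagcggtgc
CDC20 (chr1:43358841-43358980, plus strand): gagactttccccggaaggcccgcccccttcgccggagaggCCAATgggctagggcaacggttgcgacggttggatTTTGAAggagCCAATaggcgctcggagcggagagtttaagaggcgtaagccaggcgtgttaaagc
CENPA (chr2:26785916-26786055, plus strand): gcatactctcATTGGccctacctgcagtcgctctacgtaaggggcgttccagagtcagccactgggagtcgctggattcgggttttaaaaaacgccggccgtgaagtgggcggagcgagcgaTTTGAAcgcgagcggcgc
INCENP (chr11:62123871-62124010, plus strand): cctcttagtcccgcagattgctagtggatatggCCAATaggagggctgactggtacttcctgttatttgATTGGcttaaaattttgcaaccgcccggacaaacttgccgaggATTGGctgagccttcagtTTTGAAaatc
KIF23 (chr15:69414209-69414348, plus strand): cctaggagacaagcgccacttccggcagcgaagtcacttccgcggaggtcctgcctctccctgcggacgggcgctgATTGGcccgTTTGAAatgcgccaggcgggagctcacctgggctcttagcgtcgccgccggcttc
MKI67 (chr10:128126424-128126563, minus strand): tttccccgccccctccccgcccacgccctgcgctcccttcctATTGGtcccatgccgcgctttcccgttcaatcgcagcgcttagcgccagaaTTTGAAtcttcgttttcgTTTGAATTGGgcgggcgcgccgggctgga
MYBL2 (chr20:43666974-43667113, plus strand): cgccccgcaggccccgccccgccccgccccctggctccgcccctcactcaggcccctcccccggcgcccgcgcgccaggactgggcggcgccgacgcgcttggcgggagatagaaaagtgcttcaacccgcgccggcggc

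Counting back from the gene start, the CHR hexamer began at -29 in PLK1, -65 in CDC20, -18 in CENPA, -10 in INCENP, -55 in KIF23, and -47 and -29 in MKI67. The CCAAT boxes lay upstream in PLK1 (-73), CENPA (-130) and KIF23 (-64), and on both sides of the hexamer in CDC20 (-100 and -55). In MKI67 the second hexamer and the box at -24 share a base. A match is a string of letters and not a measured binding site, and a gene without a match may hold a form that was not searched. The fold changes of genes with and without a match overlapped: the median was -0.83 for the 39 with a CHR hexamer (range -1.35 to -0.35) and -1.04 for the 9 tested without (range -1.36 to -0.55). CENPE, KIF2C and MYBL2 held neither motif, with log2 fold changes of -0.55, -0.90 and -1.36.

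**Figure D2:**
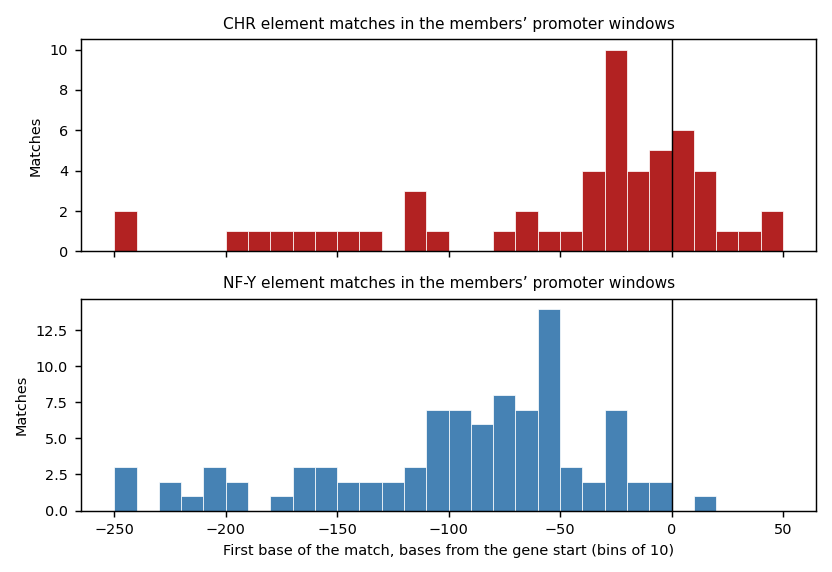
Histograms of where CHR and NF-Y (CCAAT) matches begin in the 61 promoter windows of the 49 genes, in bases from the gene start in bins of 10; the vertical axis counts matches. CHR matches crowd around the gene start and NF-Y matches lie mostly upstream of it, and genes with more than 1 window count more than once.

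The transcription factors that drive this programme, FOXM1 and MYBL2, had the most negative log2 fold changes of the 57, although the MYBL2 mean in shLAMP5, at 41.3% of shNT, was not among the 3 lowest shares. FOXM1 (ENSG00000111206), a forkhead factor active late in the cell cycle, measured 41.3 and 35.8 TPM in shNT 1 and 2, and 15.6, 17.2, 8.98 and 11.6 TPM in shLAMP5 1 to 4. Its highest shLAMP5 value was under both shNT values by 1.02 on the log2 scale, and its shLAMP5 mean was 34.6% of the shNT mean, the lowest share of the 57. FOXM1 averaged 38.5 ± 3.89 TPM (SD, n = 2) in shNT and 13.4 ± 3.76 TPM (SD, n = 4) in shLAMP5. Its log2 fold change was -1.50 (SE 0.27, with 95% limits of -2.13 and -0.87), and limma gave a p of 0.000616, or 0.366 adjusted. The exact two-sided permutation p of FOXM1 was 0.0667, the smallest that the 15 splits of 6 libraries into 2 and 4 allow. In the GENCODE annotation ITFG2 shares 781 exon bases with FOXM1 on the opposite strand, and the labels do not say whether reads were assigned by strand. MYBL2, which encodes B-MYB, measured 90.0 and 103 TPM in shNT and 56.6, 40.2, 18.2 and 44.3 TPM in shLAMP5. The shLAMP5 libraries differed more among themselves in MYBL2 (39.8 ± 16.0 TPM, SD, n = 4) than in FOXM1, and shLAMP5 3 was far below the rest. The log2 fold change of MYBL2 was -1.36 (SE 0.40), with a limma adjusted p of 0.505.

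**Figure D3:**
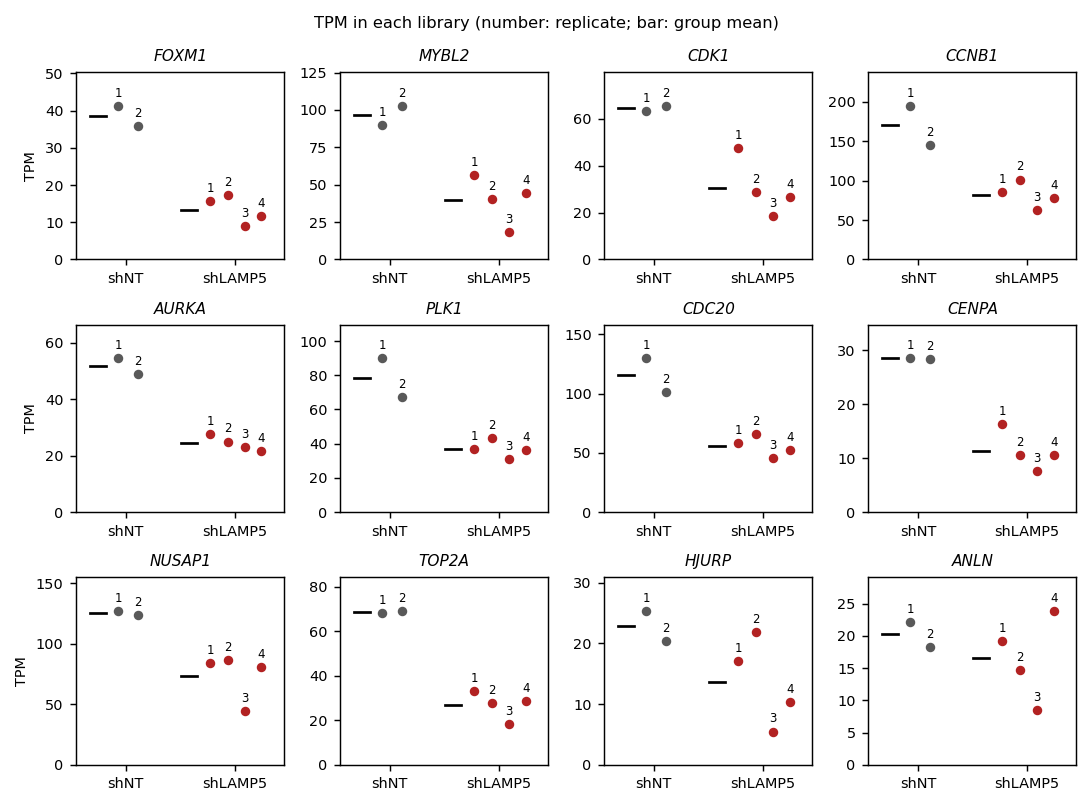
TPM of 12 mitotic genes in each library, with replicate numbers beside the points, grey for shNT, red for shLAMP5 and a bar for the group mean; every vertical axis starts at 0. In FOXM1, AURKA, CENPA and TOP2A the groups are well apart, NUSAP1 has shLAMP5 3 (44.3 TPM) apart from the other shLAMP5 libraries, and in HJURP and ANLN the groups overlap.

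Kinases, cyclins and phosphatases of mitotic entry were lower by similar amounts, apart from the CDC25 genes. All 8 had every shLAMP5 library below both shNT libraries, against 13.5% of all genes tested, and the median log2 fold change was -1.05. The same 13.5% stands beside such counts in the role groups below. CDK1, the kinase that starts mitosis, measured 63.2 and 65.5 TPM in shNT and 47.7, 28.6, 18.6 and 26.5 TPM in shLAMP5. The control values nearly coincided, while the shLAMP5 libraries spread from shLAMP5 1 at the top to shLAMP5 3 at the bottom (log2 fold change -1.14, SE 0.33, limma adjusted p 0.505). CCNB1, its main cyclin partner, measured 195 and 145 TPM in shNT and 85.3, 101, 62.6 and 77.5 TPM in shLAMP5. Here shLAMP5 2 was the highest of the 4 and shNT 1 the highest of all, with a log2 fold change of -1.05 (SE 0.24, limma adjusted p 0.491). CCNB2 and CCNA2, the other cyclins, had log2 fold changes of -1.05 and -1.10. AURKA (ENSG00000087586), the kinase of centrosomes and spindle poles, measured 54.4 and 48.7 TPM in shNT and 27.7, 25.0, 23.1 and 21.7 TPM in shLAMP5. Its shLAMP5 values lay close together (24.4 ± 2.57 TPM, SD, n = 4), and AURKA was 1 of 2 tested genes in which shLAMP5 4 was the lowest library, KIF18B being the other. Its log2 fold change of -1.05 had the smallest SE of the 57 (0.19) and the smallest limma p (0.000541 before and 0.366 after adjustment). PLK1, the Polo kinase of spindle assembly and mitotic exit, measured 89.9 and 67.5 TPM in shNT and 37.0, 43.1, 31.2 and 36.6 TPM in shLAMP5. All 4 shLAMP5 values of PLK1 were well below the lower control, and the log2 fold change was -1.06 (SE 0.21, limma adjusted p 0.440). The phosphatases that activate CDK1 were nearer to the controls. CDC25B kept 60.0% of the shNT mean and CDC25C 67.5%, the latter with 8.79 and 7.32 TPM in shNT and 5.64, 6.22, 4.16 and 5.75 TPM in shLAMP5 (log2 fold change -0.50, SE 0.21, limma adjusted p 0.554).

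Spindle checkpoint genes had a median of -0.93, and all 6 had every shLAMP5 library below both shNT libraries. CDC20, the activator of the anaphase-promoting complex that the checkpoint holds back, measured 130 and 101 TPM in shNT and 58.2, 65.5, 45.5 and 52.6 TPM in shLAMP5. The gap was wide for CDC20, with a log2 fold change of -1.05 (SE 0.22, limma adjusted p 0.440). BUB1, BUB1B, TTK and MAD2L1, which sense unattached kinetochores and form the inhibitory complex, lay within a narrow range of log2 fold changes from -0.93 to -0.92. BUB1 was nearly equal in the controls, at 38.8 and 38.9 TPM, and its shLAMP5 mean was 52.0% of theirs. BUB3, a WD-repeat protein that carries BUB1 and BUB1B to kinetochores, had the highest shNT mean of all the mitotic genes and was less reduced. It measured 176 and 206 TPM in shNT and 155, 113, 119 and 147 TPM in shLAMP5, so that shLAMP5 1 came close to shNT 1. The BUB3 mean in shLAMP5 was 70.1% of that in shNT (log2 fold change -0.52, SE 0.20, limma adjusted p 0.534), and its lowest library was shLAMP5 2 and not shLAMP5 3.

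Genes of anaphase and of the release of sister chromatids had a median of -0.91, and 3 of 4 showed no overlap between the groups. UBE2C, the ubiquitin-conjugating enzyme of the anaphase-promoting complex, measured 98.3 and 82.8 TPM in shNT and 38.7, 46.1, 31.3 and 41.8 TPM in shLAMP5. All 4 shLAMP5 values of UBE2C were far below the controls, with a mean of 43.6% of shNT and a log2 fold change of -1.18 (SE 0.21, limma adjusted p 0.366). PTTG1, or securin, the inhibitor of separase, had a log2 fold change of -0.95, and its near-identical copies PTTG2 and PTTG3P stayed at or under 0.102 TPM. ESPL1, separase itself, measured 10.0 and 7.96 TPM in shNT and 4.15, 8.43, 2.78 and 3.87 TPM in shLAMP5. The groups overlapped in ESPL1, with shLAMP5 2 between the 2 controls. SGO1, which protects centromeric cohesion, measured 6.90 and 6.35 TPM in shNT and 4.98, 5.95, 2.39 and 3.31 TPM in shLAMP5 (log2 fold change -0.62, SE 0.31, limma adjusted p 0.592). Its shLAMP5 2 value was again the highest of the 4 and close to the controls.

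At the centromere, CENPA and its loading factor differed from each other. CENPA, the histone variant that marks centromeres, measured 28.5 TPM in both shNT libraries and 16.4, 10.7, 7.59 and 10.6 TPM in shLAMP5. No shLAMP5 library came near the controls, and the log2 fold change was -1.31 (SE 0.28, limma adjusted p 0.464). HJURP, the chaperone that deposits CENPA, measured 25.3 and 20.5 TPM in shNT and 17.0, 21.9, 5.48 and 10.3 TPM in shLAMP5. The HJURP value of shLAMP5 2 lay between the controls, so the groups overlapped (log2 fold change -0.85, SE 0.47, limma adjusted p 0.614). CENPM, CENPN and CENPW, components of the inner kinetochore, had log2 fold changes of -1.06, -0.70 and -0.86.

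Outer kinetochore genes, which bind microtubules, had a median of -0.81 among the 5 tested. NUF2, a subunit of the NDC80 complex, measured 33.3 and 27.4 TPM in shNT and 21.1, 16.3, 9.86 and 12.2 TPM in shLAMP5 (log2 fold change -1.03, SE 0.30, limma adjusted p 0.505). NDC80, its partner, had a log2 fold change of -0.83. SPC25, another subunit, measured 11.5 and 12.1 TPM in shNT and 13.6, 7.41, 3.68 and 7.35 TPM in shLAMP5. In SPC25 the shLAMP5 1 library was the highest of all 6, and the fold change of -0.62 had an SE of 0.40 (limma adjusted p 0.673). SPC24, the remaining subunit of the complex, was listed at 0.441 and 0.231 TPM in shNT, at 0.261 TPM in shLAMP5 3 and at 0 in the other 3 shLAMP5 libraries, and was not tested. CENPF and CENPE, large proteins of the kinetochore corona, had log2 fold changes of -0.81 and -0.55, and CENPE was low throughout, at 5.11 TPM or less.

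The chromosomal passenger complex, which corrects wrong attachments and later guides cytokinesis, had the narrowest range of any role group with more than 2 genes, from -0.92 to -0.82 over its 4 genes. INCENP, its scaffold, measured 42.1 and 32.9 TPM in shNT and 24.1, 21.2, 17.2 and 20.3 TPM in shLAMP5 (log2 fold change -0.83, SE 0.21, limma adjusted p 0.491). BIRC5, or survivin, measured 41.6 and 40.0 TPM in shNT and 28.6, 18.2, 15.4 and 24.3 TPM in shLAMP5, and CDCA8, or borealin, had a log2 fold change of -0.82. AURKB, the kinase of the complex, measured 15.9 and 13.3 TPM in shNT and 8.66, 12.9, 4.19 and 7.12 TPM in shLAMP5. AURKB in shLAMP5 2 lay just under shNT 2, and the fold change of -0.84 had an SE of 0.36 (limma adjusted p 0.554). In ESPL1, HJURP, AURKB and SGO1 the shLAMP5 2 library exceeded the mean of the other shLAMP5 libraries by 1.05, 1.06, 0.91 and 0.65 on the log2 scale, the 4 highest such differences of the 57, and in BUB3 it lay 0.30 below.

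All 7 mitotic kinesins had every shLAMP5 library below both shNT libraries, with a median of -0.90. KIF23, the motor of the central spindle, measured 24.1 and 19.9 TPM in shNT and 10.1, 11.1, 6.22 and 8.93 TPM in shLAMP5. The lower control was well above the highest shLAMP5 library, and the log2 fold change was -1.21 (SE 0.25, limma adjusted p 0.440). KIF20A, which carries the passenger complex to the midzone, had -1.04, KIF2C, a microtubule depolymerase, -0.90, KIF14, a motor of cytokinesis, -0.82, and KIF11, which separates spindle poles, -0.79. KIF4A, a chromokinesin, kept 47.2% of its shNT mean, and its near-identical copy KIF4B stayed at or under 0.00637 TPM. KIF18B measured 1.84 and 1.7 TPM in shNT and 0.862, 1.24, 0.613 and 0.373 TPM in shLAMP5, the lowest level of the tested genes (log2 fold change -0.67, SE 0.27, limma adjusted p 0.541), and the log2(TPM + 1) scale understates its ratio.

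Genes of spindle assembly and the midzone had a median of -0.86, and none of the 6 overlapped between groups. TPX2, which activates AURKA on microtubules, measured 60.3 and 52.9 TPM in shNT and 35.7, 31.4, 19.9 and 33.8 TPM in shLAMP5 (log2 fold change -0.91, SE 0.26, limma adjusted p 0.505). NUSAP1, which bundles microtubules, measured 127 and 124 TPM in shNT and 84.0, 86.2, 44.3 and 80.4 TPM in shLAMP5. In NUSAP1 shLAMP5 3 stood apart while the other 3 lay within a few TPM of each other (log2 fold change -0.81, SE 0.29, limma adjusted p 0.524). DLGAP5, ASPM, HMMR and PRC1 had log2 fold changes of -0.93, -0.93, -0.77 and -0.75.

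The 3 genes grouped under cytokinesis had the least negative median of the 11 role groups, -0.55. This depends on the grouping, since KIF23 (-1.21) and KIF14 (-0.82), which also act in cytokinesis, were placed with the kinesins. RACGAP1, which with KIF23 forms the centralspindlin complex, measured 48.1 and 42.2 TPM in shNT and 34.1, 24.7, 19.8 and 29.6 TPM in shLAMP5 (log2 fold change -0.74, SE 0.25, limma adjusted p 0.505). ECT2, the activator of RhoA at the cleavage site, had -0.55. ANLN, the anillin scaffold of the contractile ring, measured 22.2 and 18.3 TPM in shNT and 19.3, 14.7, 8.48 and 23.9 TPM in shLAMP5. ANLN was highest in shLAMP5 4 and lowest in shLAMP5 3, so that the shLAMP5 libraries spanned the controls (log2 fold change -0.35, SE 0.37, 95% interval -1.20 to 0.49, limma adjusted p 0.806). Its fold change was 0.0062 with library weights and -0.085 without shLAMP5 3.

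Genes of chromosome structure had a median of -0.94, and all 7 had every shLAMP5 library below both shNT libraries. TOP2A, the topoisomerase that untangles sister chromatids, measured 68.1 and 69.1 TPM in shNT and 33, 27.6, 18.3 and 28.8 TPM in shLAMP5. The highest shLAMP5 value of TOP2A was 1.02 below the lower control on the log2 scale, the widest gap of the 57, and the log2 fold change was -1.35 (SE 0.25, limma adjusted p 0.387). MKI67, the surface protein of mitotic chromosomes used as a proliferation marker, measured 27.6 and 17.4 TPM in shNT and 11.2, 11.8, 7.07 and 9.65 TPM in shLAMP5. Its controls were far apart, and the fold change was -1.09 (SE 0.27, limma adjusted p 0.491), or -0.77 without shNT 1 and -1.41 without shNT 2. Within condensin, NCAPH and NCAPG, subunits found only in condensin I, had -1.09 and -0.94, while the ATPase subunits SMC2 and SMC4, which both condensins share, had -0.73 and -0.69. NCAPD2, another condensin I subunit, measured 53.1 and 64.5 TPM in shNT and 45.5, 34.2, 29.8 and 50.9 TPM in shLAMP5. In NCAPD2 the shLAMP5 4 library came close to shNT 1 (log2 fold change -0.57, SE 0.26, limma adjusted p 0.569), and MRPL51, at up to 227 TPM, shares 486 exon bases with it on the opposite strand.

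**Figure D4:**
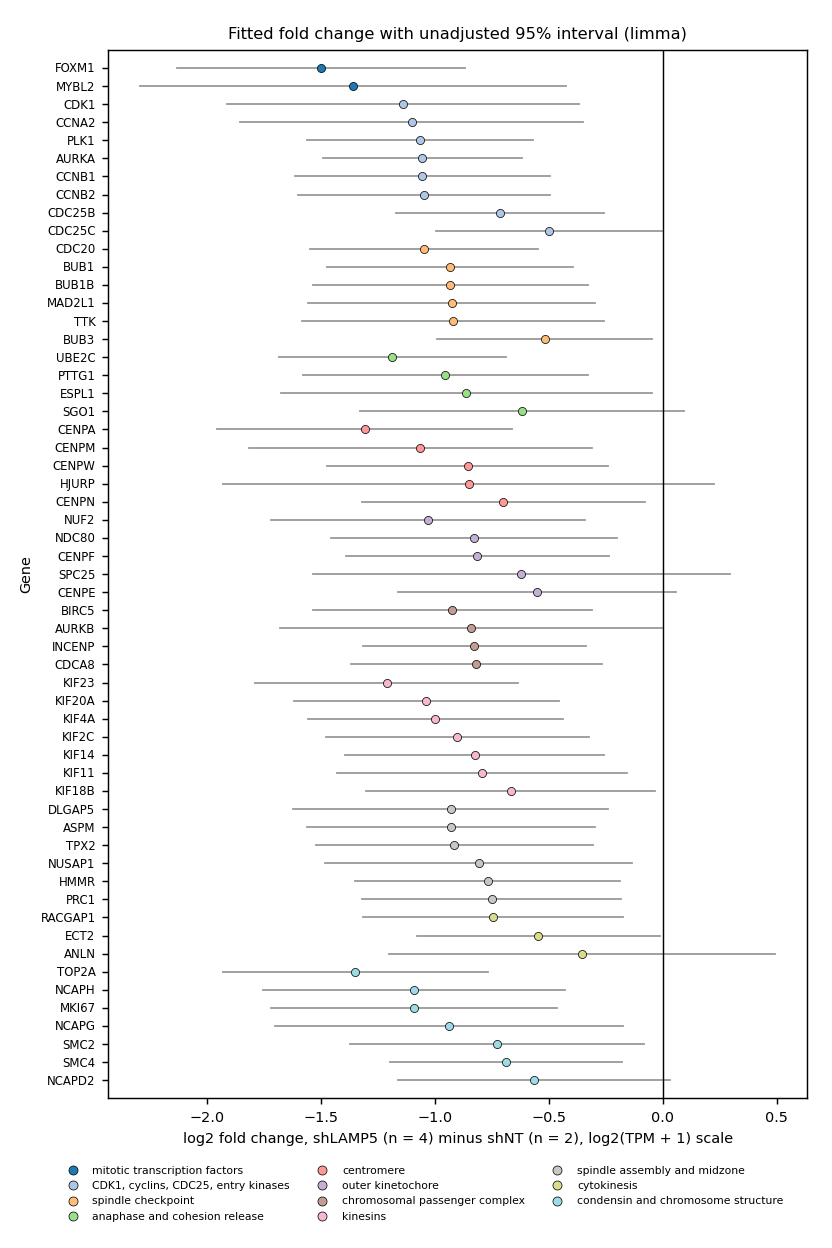
Log2 fold change of each tested mitotic gene (horizontal axis, from log2(TPM + 1) values) with its unadjusted 95% interval from limma, coloured by role. All 57 points lie below 0, from -1.50 for FOXM1 to -0.35 for ANLN, and most intervals overlap each other.

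The intervals of most genes overlapped, and no difference between role groups was tested. In all, 16 of the 58 genes share at least 50 exon bases with a gene on the opposite strand that is in the table, and 13 have a named copy or pseudogene in it.

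Other genes of mitosis, listed by function, had a median log2 fold change of -0.59, and its difference from the -0.91 of the 57 was not tested. Of 103 tested, 97 had negative values, against 50.7% of all genes tested, and 0 passed the limma test in either direction. At an unadjusted p under 0.05 there were 46 lower and 0 higher, against 5.25% and 3.72% of all genes. In 64 of the 103 each shLAMP5 value was under both shNT values, against 13.5% of all genes. Among other kinetochore genes, all 25 were negative (median -0.58), with SKA3 at -1.25 and CENPO at -0.75. Of 23 other spindle and cytokinesis genes, 22 were negative (median -0.78), with ARHGAP11A at -1.05 and GTSE1 at -0.96. The 1 positive value in that list was KIFC2, at 92.5 TPM in shLAMP5 2 and 25.5 to 36.4 TPM in the other libraries. Of 23 other kinases, checkpoint and anaphase-promoting complex genes, 21 were negative (median -0.43), with MELK at -1.09 and CCNF at -0.93, and with positive values for MAD1L1 (0.33) and MAD2L1BP (0.024). The list of cohesin and the remaining condensin genes had a median of -0.54, with CDCA5, or sororin, at -1.23 and the cohesin subunit STAG2 at 0.029. It also held CDCA3 (-1.07), which belongs to neither complex. Regulators of the programme, the MuvB, DREAM and E2F genes, had a median of -0.42 over 17 tested, with E2F8 at -1.02, E2F1 at -0.96, the pocket protein gene RBL2 at 0.0094 and TFDP2 at 0.032.

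Genes of DNA replication lay at values similar to those of the mitotic genes, and the difference was not tested. The 42 replication genes were all negative, against 50.7% of all genes tested, with a median of -0.88. In 33 of the 42 each shLAMP5 value was under both shNT values, against 13.5% of all genes. None passed the limma test, and 27 were lower at an unadjusted p under 0.05, against 5.25% of all genes. MCM2, of the replicative helicase, had -1.46 and ORC1, of the origin recognition complex, -1.31. G1 cyclins, their kinases and the kinase inhibitors were mixed, with 9 of 13 negative and a median of -0.093. CDK2 had -1.15 and CCNE1, its cyclin E partner, -0.89. CDKN1A, which encodes the inhibitor p21, measured 302 and 345 TPM in shNT and 440.1, 425, 986 and 377 TPM in shLAMP5, with its highest value in shLAMP5 3, the library in which most mitotic genes were lowest (log2 fold change 0.67, limma adjusted p 0.620). CDKN1C, another inhibitor, was at or under 3.44 TPM and had 0.56.

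**Figure D5:**
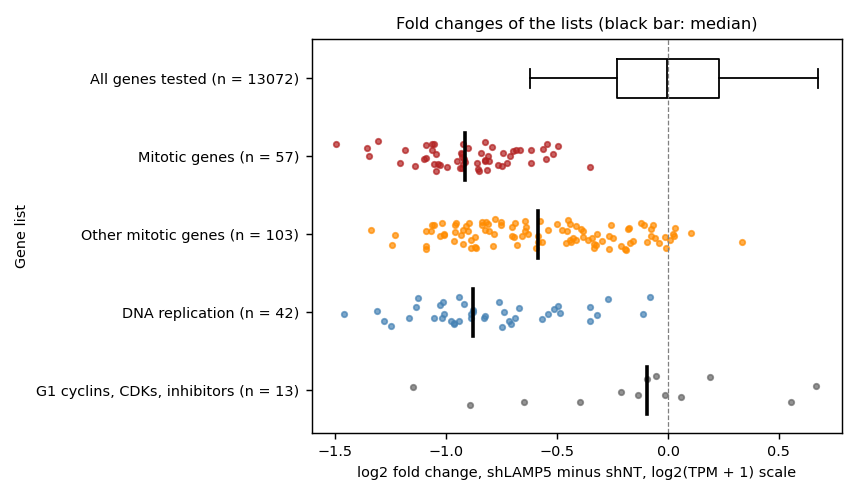
Log2 fold changes (shLAMP5 minus shNT, log2(TPM + 1) scale) for all 13072 genes tested (box, quartiles, whiskers at the 5th and 95th percentiles) and for each gene of 4 lists (points), with medians as black bars. The mitotic genes (median -0.91) and the replication genes (-0.88) lie at similar values, the other mitotic genes nearer to 0 (-0.59) and the G1 genes around 0 (-0.093).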

How the data were processed

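RNA was measured by RNA sequencing in 6 libraries, 2 shNT and 4 shLAMP5, grouped by their titles. The authors deposited 1 table whose values were read as TPM, since they are fractional and sum to 897026 to 912565 per library. Per the submitters' processing notes, kallisto and hg19 were used. Its version, transcript set and strand setting are not stated there. Read numbers cannot be recovered from TPM: depth is unknown, and no interval for counting error is given.

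Rows were matched to symbols by Ensembl identifier. Genes reaching 1 TPM in 2 or more libraries were kept, 13072 in all. Their log2(TPM + 1) values were fitted with limma 3.58.1 (R 4.3.3, trended prior variance), and p-values were Benjamini-Hochberg adjusted with a threshold of 0.05. The fit was tested on simulated data. Alternatives were other pseudocounts, filters and scalings, library weights, leaving out libraries and the replicate number as a block.

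The 58 members, the gene lists and the tests were chosen with earlier results of these data known. All 58 could be named. Full statistics went to the smallest and largest p in each of 11 role groups and to FOXM1, MYBL2, CDK1, CCNB1, PLK1, TOP2A and MKI67. From other lists the 2 smallest p per direction were named, and KIFC2's values were singled out after they were seen. Figures were made with Python 3.11.15 and matplotlib 3.10.9.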

Additional observations from a re-analysis of the deposited data

Results flagged for a closer look

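In a group of 4 libraries, a value can stand far from the other 3 by chance in about 1 of 20 groups, and the 58 mitotic genes and LAMP5 were examined. NUSAP1 measured 44.3 TPM in shLAMP5 3, against 80.4 to 86.2 TPM in the other shLAMP5 libraries. SPC24 was listed at 0.261 TPM in shLAMP5 3 and at 0 in the other 3.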

How the results depend on the processing

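All 57 tested mitotic genes kept a negative log2 fold change in 13 of 14 alternatives, where they could be tested (50 genes at a minimum of 10 TPM and 56 without shNT 1 and shLAMP5 2). The exception was ANLN, at 0.0062 with library weights. The median of the mitotic genes ranged from -1.0 to -0.74 when 1 library was left out. Where that was a shLAMP5 library, 53 to 55 genes lay below both shNT libraries in all remaining shLAMP5 libraries. The median was -0.91 under median-of-ratios scaling (50 genes below). For none of these alternatives was the share of all genes lying below computed. A fit that leaves 1 shNT library assumes that it varies like the shLAMP5 libraries. No mitotic gene was called except 15 with library weights, where 210 genes were called, 94 lower and 116 higher. LAMP5 was -1.40 with those weights (limma adjusted p 0.0302), against -1.54 (adjusted p 0.252) without, and its adjusted p was at least 0.106 in the other 13 alternatives. With no filter on low values 14 genes were called, all lower. With the replicate number as a block, 16 genes were called, 9 lower and 7 higher, none of them mitotic. The shared numbers 1 and 2 are not stated to pair libraries. Same-numbered libraries deviated oppositely (r of -0.52 and -0.47 across genes), but the deviations of the 2 shNT libraries mirror each other. Both r values thus rest on 1 shNT difference and do not decide whether the numbers pair libraries. In the block fit, shLAMP5 3 and 4 have no shNT library of the same number and drop out of the fold change. The fold change then compares only shLAMP5 1 and 2 with shNT. The mitotic median in that fit was -0.69 and 7 genes had an unadjusted p under 0.05, with 1 residual degree of freedom. Depth is unknown, so genes near 1 TPM such as KIF18B carry an error that cannot be stated.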
